A study of Mus musculus with 6 samples.

Results

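The circadian clock genes described here are Per1, Per2, Per3, Cry1, Cry2, Clock, Nr1d1, Nr1d2, Dbp and Tef, chosen by name, and all 10 were found among the 17866 protein-coding genes of the deposited table. They were measured by bulk RNA-seq in the separated corneal epithelium of C57BL/6 mice at 6 months of age, in 3 libraries labelled wild type (WT) and 3 labelled Rela-/- (KO). In the KO mice a floxed allele of Rela, which encodes the p65 subunit of NF-κB, was removed by Krt14-Cre, which acts in K14-expressing cells of the cornea, limbus and conjunctiva and also of the skin and oral mucosa. Whether the WT controls carried a floxed allele or Cre, the sex of the animals, and whether a library came from 1 animal were not given in the sources used here. The hour of collection and the light schedule were not given either, so a difference in hour between the groups and a difference in genotype cannot be told apart for any gene below.

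The circadian clock is a feedback loop of transcription that runs in most cells. The proteins CLOCK and BMAL1 (encoded by Arntl) bind E-box sequences as a pair and activate the Per and Cry genes, whose products return to the nucleus and block that pair. The same pair activates Nr1d1 and Nr1d2, which encode the nuclear receptors REV-ERBα and REV-ERBβ, repressors of Arntl, and the genes Dbp and Tef, whose products activate transcription from D-box sequences. In a running clock Arntl transcripts peak at about the opposite time of day from those of Nr1d1 and Dbp. In the cornea, the time of day at which epithelial cells divide is known to be under such control.

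Promoter sequences from RefSeq (GRCm38.p6) were found for 9 of the 10 genes, the exception being Per2, and are shown here because E-boxes and D-boxes are the sites through which the genes of this loop act on each other. Each line gives the 250 bases that precede a transcription start, read 5′ to 3′ on the strand of the gene, with motif matches in capitals. The windows are chr4:151044666-151044915 (minus strand) for Per3, chr11:69098699-69098948 (plus) for Per1, chr10:85185055-85185304 (minus) for Cry1, chr11:98775378-98775627 (minus) for Nr1d1 and chr15:81802423-81802672 (plus) for Tef.
Per3: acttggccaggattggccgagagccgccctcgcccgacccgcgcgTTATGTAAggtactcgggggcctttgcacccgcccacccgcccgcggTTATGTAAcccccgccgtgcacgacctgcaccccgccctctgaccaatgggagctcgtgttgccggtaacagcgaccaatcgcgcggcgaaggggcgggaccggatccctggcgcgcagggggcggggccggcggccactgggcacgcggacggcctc
Per1: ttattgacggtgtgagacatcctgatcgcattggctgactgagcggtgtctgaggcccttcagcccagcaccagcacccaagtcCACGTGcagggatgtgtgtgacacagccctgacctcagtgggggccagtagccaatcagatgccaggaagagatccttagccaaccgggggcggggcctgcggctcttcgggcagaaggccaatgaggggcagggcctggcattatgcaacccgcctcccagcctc
Cry1: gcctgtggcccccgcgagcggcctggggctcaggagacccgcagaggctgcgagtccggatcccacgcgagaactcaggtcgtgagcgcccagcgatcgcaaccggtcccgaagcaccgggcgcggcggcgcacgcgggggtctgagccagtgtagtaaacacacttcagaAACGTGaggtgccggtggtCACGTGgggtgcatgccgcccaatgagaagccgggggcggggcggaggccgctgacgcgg
Nr1d1: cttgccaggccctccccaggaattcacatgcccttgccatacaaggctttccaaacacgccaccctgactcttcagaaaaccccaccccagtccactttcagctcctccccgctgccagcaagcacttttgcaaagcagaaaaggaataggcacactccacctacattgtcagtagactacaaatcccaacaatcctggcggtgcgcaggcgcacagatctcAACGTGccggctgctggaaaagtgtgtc
Tef: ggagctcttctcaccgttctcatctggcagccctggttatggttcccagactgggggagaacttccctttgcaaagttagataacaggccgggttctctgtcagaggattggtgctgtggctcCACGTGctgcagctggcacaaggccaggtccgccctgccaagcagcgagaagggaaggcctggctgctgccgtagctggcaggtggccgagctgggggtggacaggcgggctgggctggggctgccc
The D-box TTATGTAA occurred in Per3 at 205 to 198 and at 158 to 151 bases before the start, and in 0.819% of all 32851 promoter windows of this length. The E-box CACGTG occurred in Per1 at 166 to 161 bases and in Cry1 at 60 to 55 bases before the start. In Tef it lay at 127 to 122 bases before the start, and also in a further window. A further window of Per1 had no match, and 6.02% of all windows had a match. The printed Per1 and Tef windows lie inside the gene spans given below, so their starts are not the first of the gene. The related E-box variant CACGTT, which reads AACGTG on the opposite strand, occurred in Cry1, Cry2 and Nr1d1 and in 3.85% of all windows. Matches were sought on both strands and none of those printed overlapped another. The ROR element (AAAN followed by TAGGTCA), the cyclic AMP element TGACGTCA and the κB site (GGGNN followed by TTTCC) had 0 matches in the 13 windows of these genes, and were found in 0.0457%, 1.55% and 1.41% of all windows. A match is a run of letters and not a measured binding site.

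Library totals lay between 20158404 and 20880347 estimated counts, and the clock genes had between 173 and 6583 counts in a library, so that all 10 passed the filter on low counts. The labels were checked with Rela itself, which was counted 1871, 1844 and 1855 times in the WT libraries against 318, 223 and 313 times in KO. The corneal genes Krt12, Pax6, Aldh3a1 and Krt5 were present in every library and fell in KO, while the epidermal genes Krt1, Krt10, Lor and Flg rose from a summed 15.1 to 20.1 CPM in the WT libraries to between 10145 and 22708 CPM in KO (CPM, counts scaled to an equal library size with TMM factors). Krt14, the keratin gene whose promoter drives the Cre, rose. At this age the paper reports staining of the KO epithelium with K1 (Krt1) in place of K12 (Krt12), and loss of Pax6. It describes this as metaplasia of corneal epithelial cells. From bulk RNA alone, fewer cells of a type and less RNA per cell cannot be told apart. Markers of other cells were low beside Krt12, Aldh3a1 and Krt5. Some of their sums lay within the range of the clock genes, whose mean WT levels ran from 10.3 CPM (Cry1) to 303 CPM (Nr1d1). The summed level of 6 stromal markers was 13.3 to 16.9 CPM in WT and 14.0 to 23.4 CPM in KO, and Lum was at 0 in the WT libraries. Within this sum Pdgfra fell from a mean of 13.1 to 1.21 CPM, while Vim rose from 0.905 to 10.3 CPM, and Dcn, Col1a1 and Col1a2 also rose. That of 4 photoreceptor markers was 1.48 to 2.82 CPM in WT and 0.872 to 1.62 CPM in KO, that of the vessel markers Pecam1 and Kdr was under 1 CPM in each library, and the goblet cell markers Muc5ac and Spdef went from 0.146 to 0.330 CPM in WT to between 4.26 and 20.9 CPM in KO. The 3 Schwann cell markers summed to 2.06 to 2.80 CPM in WT and 1.00 to 1.62 CPM in KO, and the 3 melanocyte markers to 7.37 to 9.65 CPM in WT and 5.16 to 5.32 CPM in KO. The 5 immune markers summed to 266 to 336 CPM in WT and 182 to 257 CPM in KO, mostly from Itgam and Cd68. Within this sum Itgam fell from a mean of 266 to 175 CPM, while Ptprc rose from 0.402 to 5.27 CPM. Lyz2 also rose, from at most 2 counts in a WT library to a mean of 9.39 CPM in KO. The part of these cell types, and of the change from corneal to epidermal epithelium, in the clock gene results was not tested.

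WT replicate 3 stood apart from the other WT libraries in clock genes. Its level was more than 0.5 log2 units from the mean of the other WT libraries for 4 of the 10 genes, Per1, Per2, Dbp and Tef, all of them lower, where 12.6% of all tested genes differed that far. WT replicate 2 was that far from the others for 1 of the 10 genes, Dbp, and for 14.1% of all tested genes. The log2 level of Dbp minus the WT mean was 0.51 in WT replicate 2 and -0.50 in WT replicate 3. Over all tested genes WT replicate 3 was hardly farther from its group than the others were. Its median difference was 0.147 log2 units, beside 0.141 for WT replicate 1 and 0.140 for WT replicate 2. Without WT replicate 3 the log2 fold change of Per1 was 0.10 in place of 0.30. That of Per2 was -1.10 in place of -0.91 and that of Dbp -2.32 in place of -2.11.

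Of the 10 clock genes, 7 fell and 2 rose in KO at an adjusted p of 0.05 (edgeR). Of the 13305 genes tested 62.0% passed, 30.2% as lower and 31.8% as higher. Per2, Per3, Cry2, Nr1d1, Nr1d2, Dbp and Tef fell, Cry1 and Clock rose, and Per1 did not pass. The counts were also 7 lower and 2 higher when WT replicate 3 was left out. The median log2 fold change of the 10 genes was -0.91, beside 0.0063 for all genes tested. The study itself asked for an adjusted p of at most 0.001 and a 2-fold change. By that rule Per3, Nr1d1 and Dbp fell, 3 of 10 genes, while 19.8% of all genes tested passed, 8.24% as lower and 11.6% as higher. Without WT replicate 3 there were 5, with Cry2 and Tef added, and without KO replicate 2 there were 2, Per3 and Nr1d1. Dbp was also lost without KO replicate 1, where the 3 genes were Per3, Cry2 and Nr1d1. The levels of the groups did not overlap for 8 of the 10 genes, against 68.6% of all genes tested (34.7% higher and 33.9% lower in KO), and did overlap for Per1 and Per2.

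**Figure D1:**
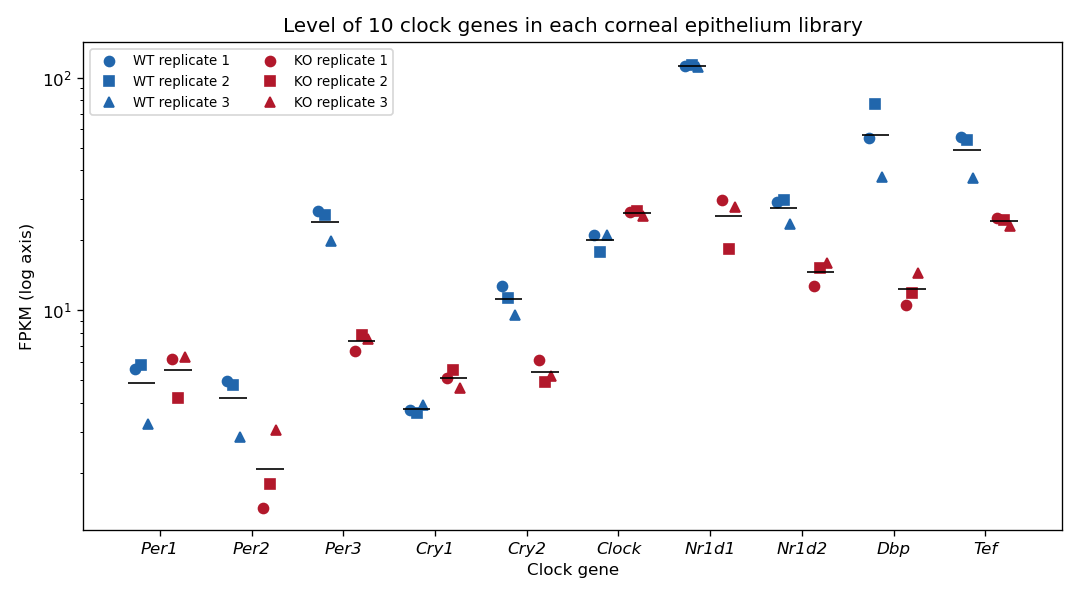
Level of each of the 10 clock genes in FPKM (log axis) in the 3 WT libraries (blue) and the 3 KO libraries (red), with the symbol giving the replicate number and the bar the group mean. The groups are apart for all genes but Per1 and Per2, and WT replicate 3 (blue triangle) is the lowest WT library for Per1, Per2, Per3, Cry2, Nr1d2, Dbp and Tef and, by a small margin, Nr1d1.

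The output genes Dbp and Tef are described first. They encode transcription factors of the PAR bZIP family, which carry the rhythm of the clock to other genes by activating D-box promoters. Dbp (gene 13170, GRCm38 chr7:45705088-45710203, plus strand) had a level of 55.0, 76.9 and 37.6 FPKM in the WT libraries and of 10.5, 11.9 and 14.5 FPKM in the KO libraries. The KO libraries were all lower than the lowest WT library, and the WT libraries themselves spread widely. KO minus WT was -2.11 log2 units (SE 0.245, edgeR adjusted p = 0.000135), with 23.1% of the WT level left. This was the farthest fall among the 10 genes in the fit reported here, but not in all alternative fits. Without WT replicate 2 the change was -1.82 for Dbp and -2.03 for Nr1d1. Tef (gene 21685, chr15:81802421-81826863, plus strand) had 55.6, 54.2 and 37.2 FPKM in WT and 25.0, 24.4 and 23.1 FPKM in KO. The KO libraries were close together, below WT replicate 3, which was lower than the other WT libraries. KO minus WT was -0.91 log2 units (SE 0.145, edgeR adjusted p = 0.000744). Exons of Dbp share 539 of 2993 bases with those of Sphk2 on the opposite strand, and the sources used here do not say if strand was used in counting, so reads from this stretch cannot be assigned to either gene. The log2 fold change of Sphk2 was -0.92 (SE 0.129).

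The nuclear receptor genes Nr1d1 and Nr1d2 encode the repressors of the second loop of the clock. Nr1d1 (gene 217166, chr11:98767932-98775333, minus strand) had the highest level of the 10 genes in WT, at 112.94, 114.08 and 111.03 FPKM, and 29.8, 18.3 and 27.9 FPKM in KO. Its WT libraries were nearly equal, and each KO library lay far below them. KO minus WT was -2.05 log2 units (SE 0.183, edgeR adjusted p = 3.51e-05), and 24.2% of the WT level was left. Nr1d2 (gene 353187, chr14:18204054-18239127, minus strand) had 29.4, 29.7 and 23.5 FPKM in WT and 12.8, 15.24 and 16.02 FPKM in KO. It fell less than its paralog, a change of -0.81 log2 units (SE 0.118, edgeR adjusted p = 0.000479), and the difference between the paralogs was not tested. Exons of Nr1d1 share 263 of 3077 bases with those of Thra, the gene of a thyroid hormone receptor on the opposite strand, and the same limit on strand applies. Thra had 33.9, 28.4 and 33.6 FPKM in WT and 14.4, 11.1 and 11.0 FPKM in KO (-1.29 log2 units, SE 0.138).

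The Period genes encode proteins of the complex that holds back CLOCK and BMAL1, and the 3 of them differed in their values. Per3 (gene 18628, chr4:151003652-151044665, minus strand), whose promoter holds both D-boxes shown above, had 26.7, 25.6 and 19.9 FPKM in WT and 6.66, 7.85 and 7.5 FPKM in KO. The groups were well apart, and the KO libraries differed little from each other. KO minus WT was -1.68 log2 units (SE 0.117, edgeR adjusted p = 9.73e-06), the lowest adjusted p of the 10 genes, with 31.2% of the WT level left. Per2 (gene 18627, chr1:91415982-91459324, minus strand) had 4.94, 4.76 and 2.84 FPKM in WT and 1.41, 1.79 and 3.05 FPKM in KO. KO replicate 3 was above WT replicate 3, so the groups overlapped. KO minus WT was -0.91 log2 units (SE 0.294, edgeR adjusted p = 0.0254), and 6 of the 16 alternative fits did not call it, among them the one without WT replicate 1 (adjusted p = 0.082), without WT replicate 2 (0.0609), without KO replicate 1 (0.0834), without KO replicate 2 (0.0834) and with the replicate block (0.0509). Per1 (gene 18626, chr11:69095217-69109960, plus strand), which also responds rapidly to hormones and handling, had 5.57, 5.82 and 3.23 FPKM in WT and 6.14, 4.21 and 6.30 FPKM in KO. The groups overlapped, as 1 library of each lay below the others. The log2 fold change was 0.30 with a 95% interval from -0.24 to 0.85 (adjusted p = 0.294, edgeR), an interval that holds both falls and rises.

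The cryptochrome genes went in opposite directions. Both encode repressors that bind the CLOCK and BMAL1 pair. Cry1 (gene 12952, chr10:85131700-85185064, minus strand) had 3.71, 3.62 and 3.92 FPKM in WT and 5.13, 5.51 and 4.62 FPKM in KO. Every KO library was above every WT library. The change came to 0.54 log2 units (SE 0.113, edgeR adjusted p = 0.00326). Cry2 (gene 12953, chr2:92403646-92434043, minus strand) had 12.7, 11.3 and 9.49 FPKM in WT and 6.08, 4.90 and 5.21 FPKM in KO. Here every KO library was below every WT library, a change of -0.94 log2 units (SE 0.134, edgeR adjusted p = 0.000400). In WT the level of Cry2 was above that of Cry1 in each library, while in KO their ranges overlapped. Both passed in all 16 alternative fits. Exons of Cry2 and of Tef share 295 of 6320 and 193 of 7867 bases with those of the opposite-strand transcripts D930015M05Rik and Gm17597, which were not analysed here.

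Clock, which encodes the DNA-binding partner of BMAL1, was the other gene that rose. Clock (gene 12753, chr5:76209868-76304792, minus strand) had 21.1, 17.8 and 21.0 FPKM in WT and 26.5, 26.8 and 25.5 FPKM in KO. The KO libraries were higher and nearly equal. KO minus WT was 0.51 log2 units (SE 0.0991, edgeR adjusted p = 0.00231). Clock thus went from the sixth place in mean FPKM among the 10 genes in WT to the first in KO, where it overlapped with Nr1d1. Nr1d1 was above Clock in KO replicates 1 and 3, and below it in KO replicate 2 (18.3 against 26.8 FPKM). The full order in WT was Nr1d1, Dbp, Tef, Nr1d2, Per3, Clock, Cry2, Per1, Per2 and Cry1, and neighbours whose libraries overlapped were Dbp and Tef, Nr1d2 and Per3, Per3 and Clock, Per1 and Per2, and Per2 and Cry1. In KO it was Clock, Nr1d1, Tef, Nr1d2, Dbp, Per3, Per1, Cry2, Cry1 and Per2, and the overlapping neighbours were Clock and Nr1d1, Nr1d1 and Tef, Nr1d2 and Dbp, Per1 and Cry2, and Cry2 and Cry1.

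The remaining parts of the loop were taken from a list of 13 further clock genes, of which 12 had enough counts. Of these 4 fell, 1 rose and 7 did not pass, and the median log2 fold change was 0.10, where 62.0% of all genes tested passed, 30.2% as lower and 31.8% as higher. Arntl, which encodes BMAL1, had 12.01, 8.69 and 18.4 FPKM in WT and 7.51, 6.44 and 5.52 FPKM in KO. The groups did not overlap, but the WT libraries were far apart. The change came to -0.91 log2 units (SE 0.254, edgeR adjusted p = 0.0134), and it passed in all 16 alternative fits. Without WT replicate 3, its highest library, the change was -0.56 (adjusted p = 0.0347, edgeR). Among the genes that its product activates, Per2, Per3, Cry2, Nr1d1, Nr1d2, Dbp and Tef were lower in KO, Cry1 was higher and Per1 did not pass.

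The D-box factors outside the 10 genes changed more than any other clock gene tested. Hlf, the third PAR bZIP activator, had 124.22, 99.5 and 81.4 FPKM in WT and 15.1, 20.6 and 19.1 FPKM in KO, a change of -2.40 log2 units (SE 0.174, edgeR adjusted p = 1.18e-05). Nfil3, the repressor that competes for the same D-box letters, was counted 12, 4 and 20 times in the WT libraries against 279, 196 and 305 times in KO, a difference of 4.53 log2 units (SE 0.395, adjusted p = 3.12e-05, edgeR). The 3 activators Dbp, Tef and Hlf were thus lower, and the repressor Nfil3 higher, in every KO library than in any WT library. Of all genes tested, 33.9% were lower and 34.7% higher in KO with groups that likewise did not overlap. The WT counts of Nfil3 were small, and the log2 fold change lay between 2.5 (limma on log2(FPKM + 1)) and 5.13 in the alternative fits.

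Of the other regulators, Bhlhe40 and Bhlhe41, which encode repressors that also bind E-boxes, fell with log2 fold changes of -0.77 (SE 0.108, adjusted p = 0.000380, edgeR) and -1.40 (SE 0.390, adjusted p = 0.0135, edgeR). Those that did not pass included Arntl2 (log2 fold change 0.15), Npas2 (0.08), Rora (0.13), Ciart (0.35), Timeless (0.18) and Tipin (0.52). Rora encodes an activator that competes with the REV-ERB proteins. Rorb had 2 counts in KO replicate 1 and 0 elsewhere. It could not be detected at this depth, where 3 counts correspond to between 0.137 and 0.152 CPM. Npas2 spread widely within each group, from 3.94 to 6.54 FPKM in WT and from 3.64 to 7.03 FPKM in KO. Without WT replicate 2, which had the highest WT level of Ciart, Timeless and Tipin, all 3 passed as higher in KO, with log2 fold changes of 0.87, 0.53 and 0.80 (adjusted p of 0.0122, 0.0159 and 0.00299, edgeR).

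**Figure D2:**
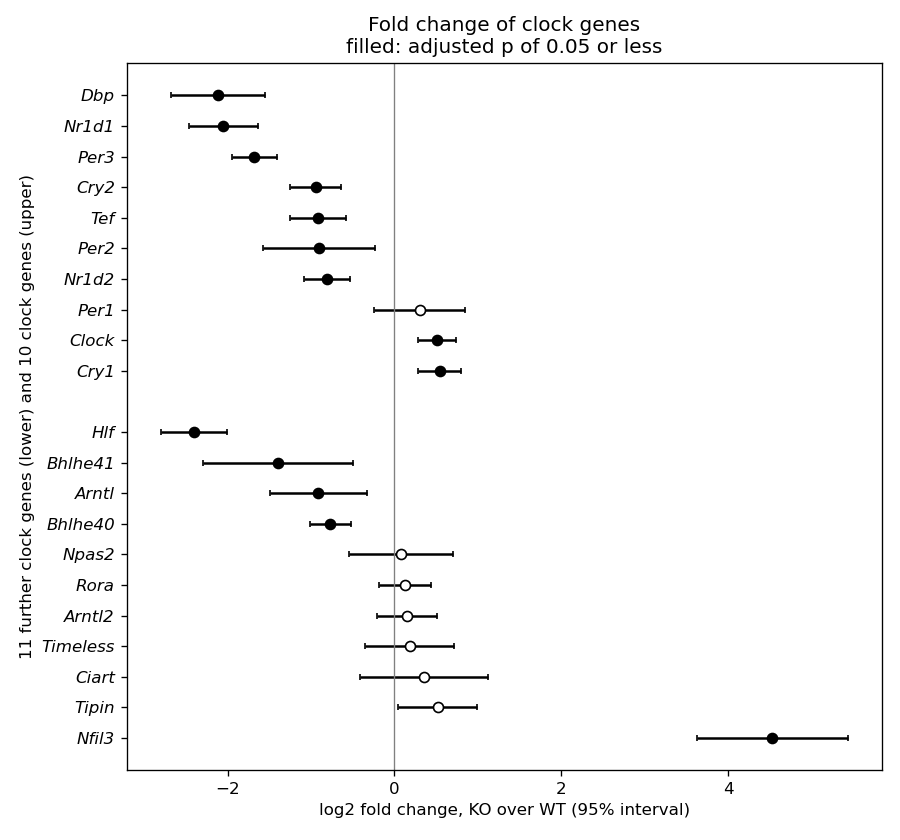
Log2 fold change (KO over WT) with its 95% interval from edgeR for the 10 clock genes (upper block) and 11 further clock genes (lower block), filled where the adjusted p was 0.05 or less. Nfil3 at 4.53 and Hlf at -2.40 lie at the ends of the scale, and Dbp, Nr1d1 and Per3 lie between -2.11 and -1.68.

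Genes that act on clock proteins and genes driven by the clock were taken from further lists, to be read against the 62.0% of all genes tested that passed. Of 16 genes for kinases, ubiquitin ligases, deacetylases and cofactors, 7 fell, 2 rose and 7 did not pass. Btrc, which encodes a ligase subunit that marks PER proteins for degradation, fell a change of -1.46 log2 units (SE 0.116, edgeR adjusted p = 1.88e-05), and Fbxl21, for a cryptochrome ligase subunit, fell by 1.55 (adjusted p = 0.00138, edgeR) from counts of at most 39.2. Csnk1a1, a casein kinase gene, rose by 0.58 (adjusted p = 0.00175, edgeR), and Sirt1 rose by 0.33 (adjusted p = 0.0266, edgeR) but lost its call in 8 of 16 alternative fits. Of 8 clock-driven or temperature-dependent genes, 4 rose, 2 fell and 2 did not pass. Noct, the gene of the rhythmic protein nocturnin, rose by 1.82 (SE 0.178, adjusted p = 5.54e-05, edgeR) and Rbm3 by 1.61 (SE 0.161, adjusted p = 6.07e-05, edgeR). Cirbp, like Rbm3 the gene of a cold-inducible RNA-binding protein, fell, with a log2 fold change of -0.69 (adjusted p = 0.00344, edgeR). Wee1, a cell cycle kinase gene under clock control, had a log2 fold change of -0.61 (adjusted p = 0.0277, edgeR), with overlapping groups and its call lost in 6 of 16 alternative fits.

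The spread among libraries of 1 genotype was also examined, since the hour of collection is not given. The SD of log2 CPM among the WT libraries was 0.503 for Dbp, 0.450 for Per1 and 0.421 for Per2, which lay above 89.5%, 87.7% and 86.4% of all genes tested. Nr1d1 was at the other end, with an SD of 0.0222, above 3.19% of all genes. In KO the order was different, with Per2 at 0.549 and Nr1d1 at 0.408, above 93.6% and 87.7% of all genes, and Clock at 0.0290, above 2.79%. The median SD of the 10 genes was 0.191 in WT and 0.172 in KO, beside 0.140 and 0.168 for all genes tested. Depth was nearly equal among the libraries, and its part in this spread was not tested.

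Within WT, replicate 3 was below the mean of the other WT libraries for 7 of the 10 genes, and above it for Arntl. It was below that mean for 50.8% of all genes tested. Relative to the mean of WT replicates 1 and 2, its log2 level differed by -0.77 for Per1, -0.75 for Dbp, -0.73 for Per2, -0.53 for Tef and -0.34 for Per3, and by 0.85 for Arntl and 0.59 for Npas2. The size of the difference was above that of 92.8% of all genes for Dbp and 94.3% for Arntl. Nr1d1 differed by 0.01, and Cry1 and Clock were higher in WT replicate 3, each by 0.15. Some immediate early genes, chosen after their values were seen, were also high in WT replicate 3. The differences were 3.09 for Fosb, 1.25 for Dusp1 and 1.19 for Egr1. Fos (0.70), Arc (0.34), Ier2 (0.24), Junb (0.20) and Jun (0.09) were higher there too, as was Egr3 (1.17) from WT counts of at most 2. Egr2 (-0.94), Nr4a1 (-0.74) and Atf3 (-0.33) were lower there. Their WT counts were few. Egr2 had 4.3, 9.54 and 3.4, Nr4a1 had 5, 6 and 3, and Atf3 had 8, 35 and 13. In KO, replicate 3 had the highest Dbp and Per2 and the lowest Arntl of its group. KO replicate 2 was below the mean of the other KO libraries for 7 of the 10 genes. These are differences between single libraries, with no replicate of their own.

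**Figure D3:**
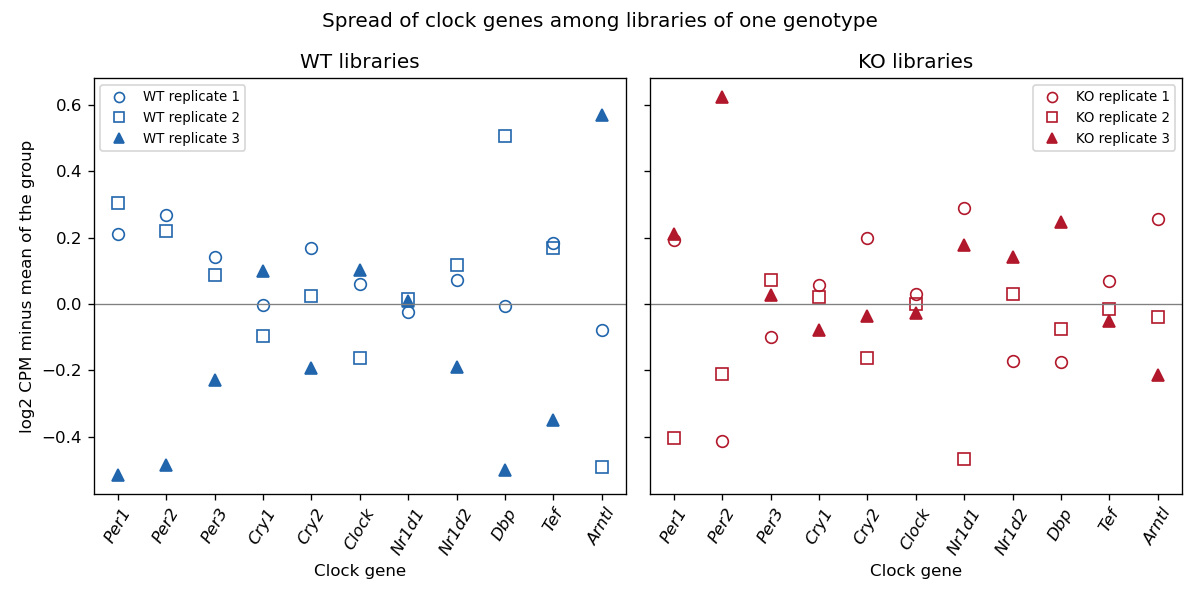
Log2 CPM of each library minus the mean of its genotype, for the 10 clock genes and Arntl, in WT (left) and KO (right). WT replicate 3 (filled triangle) is below the WT mean for Per1, Per2, Per3, Cry2, Nr1d2, Dbp and Tef and above it for Arntl, and KO replicate 3 is above the KO mean for Per2 and Dbp and below it for Arntl.

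Ratios within a library do not depend on its scaling, and were taken against Arntl as a description. The log2 CPM of Dbp minus that of Arntl was 1.36, 2.28 and 0.22 in the WT libraries and -0.35, 0.04 and 0.54 in the KO libraries. In this ratio WT replicate 3 lay among the KO libraries, and the mean difference between the groups was -1.21. Its levels of both genes were above those of every KO library. Dbp had 59.8 CPM in WT replicate 3 against 17.9, 19.2 and 23.9 CPM in KO. Arntl had 51.4 CPM there, its highest library, against 22.8, 18.6 and 16.5 CPM in KO. For Nr1d1 minus Arntl the values were 3.18, 3.63 and 2.57 in WT and 1.93, 1.47 and 2.29 in KO, with no overlap. For Per3 minus Arntl they were 2.51, 2.87 and 1.49 in WT and 1.12, 1.59 and 1.72 in KO. The ratio of WT replicate 3 again lay among those of KO. Its Per3 level, 144.6 CPM, was above the 49.6, 55.9 and 54.2 CPM of the KO libraries. For Per2 minus Arntl the group means were nearly equal, at -0.63 in WT and -0.71 in KO, with SDs of 0.93 and 0.77. Clock minus Arntl was 2.54, 2.74 and 1.94 in WT and 3.55, 3.81 and 3.96 in KO, so that the genes for the partners of the activating pair stood farther apart in every KO library.

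**Figure D4:**
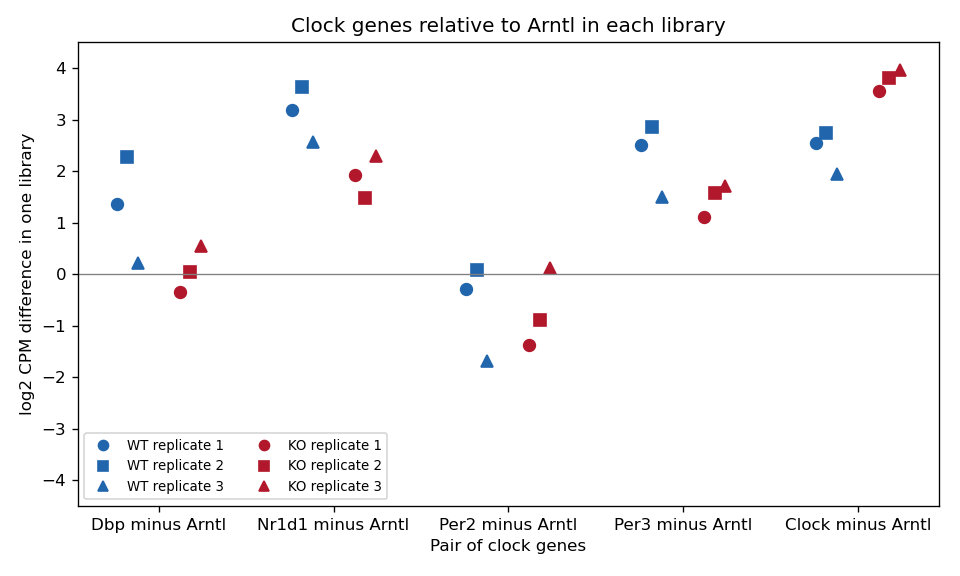
Difference in log2 CPM between a clock gene and Arntl within each library, for WT (blue) and KO (red), with symbols for the replicate number. The groups are apart for Nr1d1 and Clock. The difference in WT replicate 3 falls in the KO range for Dbp, at 0.22, and for Per3, at 1.49. The Dbp, Per3 and Arntl levels of WT replicate 3 were each above those of every KO library.

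The genes whose pattern over the 6 libraries was most like that of a clock gene were listed for Dbp and Nr1d1, as a description over libraries that share a genotype difference. For Dbp they were Arhgap21, Polk, Fam129a, Ogg1 and Sept10, with Pearson correlations of log2 CPM between 0.996 and 0.998, and 657 of 11383 genes were above 0.95. For Nr1d1 they included Zkscan5, Pip4k2c, Gnai2 and Myo1d, with correlations from 0.998 to 1.000, and 1522 genes were above 0.95.

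**Figure D5:**
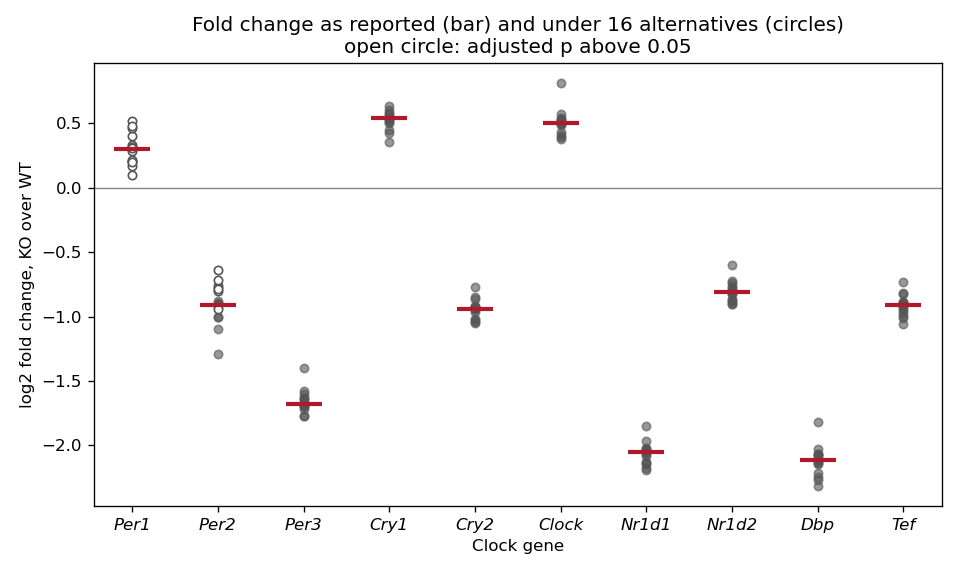
Log2 fold change (KO over WT) of the 10 clock genes as reported (red bar) and under each of 16 alternative fits (circles, open where the adjusted p was above 0.05). All values stay on one side of 0, Per1 is open throughout, Per2 is open in 6 fits, and the other 8 genes are filled in each fit.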

How the data were processed

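RNA from separated corneal epithelium was sequenced. Read filtering by the authors used SOAPnuke, alignment Bowtie2 (version 2.2.5) and quantification RSEM (version 1.2.12). The methods describe ribosomal RNA depletion while the labels name a TruSeq kit. The deposited table gives RSEM expected counts (estimated counts), FPKM and TPM values per gene and library. The labels name the build mm9, while the chromosome accessions of the deposited table are those of GRCm38. Gene positions printed here are from GENCODE M21 on GRCm38, since the table gives the opposite strand for Per3 and Clock. The deposited TPM values, the authors' group means and the log2 fold changes and p-values of the authors' own comparison were not used.

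Estimated counts were rounded and tested across all 13305 genes that passed filterByExpr with edgeR 4.0.16 in R 4.3.3 (TMM, glmQLFit, glmQLFTest, genotype as the only term, Benjamini-Hochberg adjustment). SE was obtained from the size of the log2 change and the F statistic (size over root F). Totals of about equal size in all 6 libraries give the depth stated in the text, and floors of 3 counts cover counting error only. Alternatives were DESeq2 1.42.0, limma 3.58.1 on log2(FPKM + 1) and log2(FPKM + 0.1), RLE factors, library totals only, TMM without the 20 highest genes, no filter, a mean count of at least 50, a gene length offset, the replicate number as a block, and leaving out each library. The edgeR test was tried on simulated counts with known changes. The clock genes and the further gene lists were chosen with earlier results of these data known. Named are the 10 genes, 13 further clock genes, Rela, genes whose exons overlap a named gene, up to 2 rises and 2 falls of other lists, and the 5 genes most like Dbp and Nr1d1. Some genes under this rule are not reported here, though counts and medians include them. Groups came from the titles. Libraries are separate biological samples per the methods. Cdh5 of the vessel list was not analysed here. Tables were handled with Python 3.11.15 and plotted with matplotlib 3.10.9.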

Additional observations from a re-analysis of the deposited data

How the results depend on the processing

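Under the 16 alternatives, the 10 clock genes kept the sign of their log2 fold changes, and 8 of the 9 called genes passed in each. The call for Per2 was lost in 6, including the gene length offset (log2 fold change -0.64, adjusted p = 0.0946, edgeR). Clock genes called lower numbered 6 to 7 and those called higher 2 when a library was left out. At the threshold of the study 5 fell with library totals only, and 2 to 5 when a library was left out. Of the further clock genes, 2 were called higher with RLE factors, a mean count of at least 50, the gene length offset or DESeq2, and 1 to 4 when a library was left out, while 5 were called lower with library totals only and in both limma fits, and 4 in each other fit. Some genes that did not pass changed sign. Npas2 had -0.015 with library totals only, -0.034 and -0.043 in limma on log2(FPKM + 1) and log2(FPKM + 0.1), -0.09 without WT replicate 1 and -0.23 without KO replicate 1, Rora had -0.011 and -0.014 in the same limma fits, and Timeless had -0.0065 without WT replicate 3. When a library was left out Npas2 ranged from -0.23 to 0.31 and Timeless from -0.0065 to 0.53. The cause of these changes was not tested.

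Replicate numbers occur in both genotypes but the animals differed. The correlations of same-numbered libraries' deviations were 0.0244, 0.0036 and 0.0616, and WT replicate 1 correlated best with KO replicate 2 (0.123). Correlations this small, from 3 libraries per group, cannot show whether the numbers pair the samples. The sources used here do not state a pairing. With the replicate block 6 clock genes were called lower and 2 higher, and 2 further clock genes were called higher.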

Other observations

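Glucocorticoid-responsive genes are set beside the clock genes because the hormone is itself rhythmic and acts on Per1. Of 9 listed genes, 4 fell, 3 rose and 2 did not pass at an adjusted p of 0.05 (edgeR), where 62.0% of all genes tested passed. Zbtb16 was counted 113.4, 108.4 and 140.3 times in the WT libraries against 3.86, 9.33 and 4.25 times in KO, a change of -4.27 log2 units (SE 0.333, edgeR adjusted p = 1.73e-05) that was -0.76 in limma on log2(FPKM + 1). Fkbp5, which encodes a chaperone partner of the glucocorticoid receptor, had 6.02, 6.35 and 4.39 FPKM in WT and 1.09, 1.11 and 1.32 FPKM in KO (log2 fold change -2.15, adjusted p = 1.76e-05, edgeR). The other falls, named after their values were seen, were Tsc22d3 at -1.74 and Nr3c1, the receptor gene, at -1.04. Ddit4 rose by 1.5 and Cebpd by 1.02 on the log2 scale, so the list did not move in 1 direction. The part of the hormone in these values was not tested.

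Immediate early genes respond within minutes to stimulation and handling. Of 12 listed genes 7 rose in KO and 5 did not pass, where 62.0% of all genes tested passed, 31.8% as higher. Egr3 was counted 2, 0 and 2 times in WT against 113, 35 and 149 times in KO, at least 35.0-fold (mean KO CPM over the highest WT floor of 3 counts per library) higher. Nr4a1 was counted 5, 6 and 3 times in WT against 68, 41 and 136 times in KO, a change of 4.20 log2 units (SE 0.550, edgeR adjusted p = 0.000266). Fos (log2 fold change -0.36) and Junb (-0.18) did not pass, their groups overlapped, and they were named after their values were seen. KO replicate 3 had the highest KO count for Nr4a1 and Egr3 and KO replicate 2 the lowest, which is also the KO library with the lowest Per1 and Nr1d1.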
